A study of Sus scrofa with 30 samples.

Results

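miR-126 was represented in the porcine endometrium by 17 sequences, 14 from the 3p arm of its hairpin and 3 from the 5p arm. They are all entries named mir-126 (either arm) in the study's list of mature miRNAs and isomiRs, the length variants of a miRNA, in which 823 sequences belong to 1 arm of 1 miRNA and 50 more carry names of several miRNAs or of none. Each was counted by exact match in 30 small RNA libraries, 1 per gilt, and all 17 had reads in every library. Hampshire x Duroc crossbred gilts of 7 to 8 months were either inseminated and pregnant (P, 16 libraries) or cyclic (C, 14 libraries) and were sampled on day (D) 12, 16 or 20. The groups held 5 (PD12), 5 (PD16), 6 (PD20), 4 (CD12), 5 (CD16) and 5 (CD20) libraries. The endometrium of pregnant gilts was taken after the conceptuses had been flushed out on D12 and D16, and on D20 from implantation sites after trophoblast and embryos had been dissected away. Libraries held between 2029729 and 6402731 reads. CD20 replicate 1 was the library least like the others of its group (median r = 0.891 across sequences, against a median of 0.939 over all libraries), and PD20 replicate 1 held the most reads of muscle miRNAs. Several main results resting on either are therefore also given without it. The marker lists and the interaction of state and day are not.

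miR-126 is known as a miRNA of endothelial cells. Its gene lies inside EGFL7, a gene for a secreted vascular protein, and RefSeq places MIR126 within EGFL7 in the pig as well (Sscrofa11.1). In blood vessels the 3p strand is known to repress SPRED1 and PIK3R2, inhibitors of signalling downstream of VEGF, and VCAM1, an adhesion molecule for leukocytes, while the 5p strand is known to repress DLK1. A miRNA finds its targets mainly through the seed, bases 2 to 8 from the 5' end, so that an isomiR with another start has another seed, whereas a changed 3' end leaves the seed as it is. The endometrium builds new vessels in every cycle and in early pregnancy, but these libraries were made from whole tissue, in which fewer endothelial cells and less miR-126 per cell cannot be told apart. Among the marker miRNAs examined here miR-126 was the only one for endothelium, so that its source was not checked against another endothelial marker.

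The listed sequences that carried most reads, and those that show how the ends shift, are printed below from 5' to 3' as DNA, with the seed in capitals. A name such as 3' DEL G gives the bases gained (ADD) or lost (DEL) at an end of the canonical sequence.
miR-126-3p canonical: tCGTACCGtgagtaataatgcg
miR-126-3p 3' DEL G: tCGTACCGtgagtaataatgc
miR-126-3p 3' DEL CG: tCGTACCGtgagtaataatg
miR-126-3p 3' ADD T: tCGTACCGtgagtaataatgcgt
miR-126-3p 5' ADD C and 3' DEL G: cTCGTACCgtgagtaataatgc
miR-126-3p 5' DEL T and 3' DEL G: cGTACCGTgagtaataatgc
miR-126-3p 5' DEL TC and 3' DEL G: gTACCGTGagtaataatgc
miR-126-5p canonical: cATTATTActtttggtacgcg
miR-126-5p 3' DEL G: cATTATTActtttggtacgc

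The canonical miR-126-3p was not its main form. The isomiR 3' DEL G, 21 nt long, held 155431 reads or 59.7% of the listed 3p reads, 3' DEL CG held 16.5% and the canonical sequence of 22 nt held 10.1%. The 14 sequences of the 3p arm had 4 starts, and therefore 4 seeds, and 5 ends. The 5 with the canonical start share the seed CGTACCG, and the 9 others carry a shifted seed. Both forms with 3' ADD T were annotated in other mammals and not in the pig. For the 5p arm, whose 3 listed sequences share 1 start, the canonical sequence held 77.2% of the listed 5p reads and 3' DEL G 17.7%. These shares leave out reads on unlisted sequences, which made up 33.5% of all deposited reads with the inner bases of the 5p arm and 10.5% for the 3p arm.

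Levels are given as normalized reads, that is reads scaled to a library of 1000000 reads on annotated sequences (CPM), after scaling between libraries by the trimmed mean of M-values (TMM). On this scale 3' DEL G had a mean of 2066 ± 470 (SD, n = 30) and ranked 47 among all annotated sequences, 3' DEL CG had 581 ± 325 and the canonical 3p sequence 349 ± 169. The canonical 5p sequence had 52.8 ± 46.9 and ranked 268. At the lower end were 3' DEL GCG of the 3p arm with 6.53 ± 3.81, 5' DEL TC and 3' DEL CG with 3.92 ± 2.84 and the 5p form 3' ADD C with 3.54 ± 1.87. Summed by arm, the 3p reads ranked 25 and the 5p reads 104 of 225 miRNA arms. The study's supplement gives its filter as at least 10 reads in at least 75% of the libraries of 1 or more groups. By this rule 14 of the 17 passed in every group. The methods text gives a fixed number of libraries instead, which is less strict for PD20 and equal for the other groups. That rule was not applied here, and 5p 3' ADD C may have passed in PD20 by it. Of the remaining members, by the 75% rule 3' DEL GCG passed in PD12, PD20, CD16 and CD20, 5' DEL TC and 3' DEL CG through PD20 alone and 5p 3' ADD C through PD12 alone. Their higher values in those groups are thus partly fixed by the filter.

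The mean of the summed miR-126-3p was highest in CD20 on the scaling of the single sequences. In this group the libraries read 4180, 4191, 4519, 4524 and 4889 normalized reads. In CD12 they read 1747, 2027, 3073 and 3319, and in CD16 2259, 2871, 3375, 3429 and 3860. All 5 libraries of CD20 thus lay above every library of CD12 and CD16, where 5.33% of the 225 arms were higher without overlap in either comparison. In the pregnant gilts the levels were 2524, 2775, 3323, 3371 and 3768 in PD12 and 3186, 3206, 3353, 3483 and 3554 in PD16, and PD20 ran from 3255 over a median of 3625 to 4790. The 3 pregnant groups overlapped each other, and the order of the means was CD12 (2541 ± 771), PD12 (3152 ± 498), CD16 (3159 ± 613), PD16 (3356 ± 164), PD20 (3863 ± 619) and CD20 (4461 ± 293). Neighbours in this order overlapped.

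The summed miR-126-5p followed another order. It was 64.2, 67.4, 84.3, 190 and 312 normalized reads in CD20 and 19.1, 29.9, 37.1, 50.7 and 56.6 in CD16, which did not overlap (5.33% of arms, as above). Within CD20 the 2 highest values came from replicates 2 and 1, and the 3 other libraries lay within the range of PD12 (49.2, 63.6, 76.0, 77.1 and 102). CD12 held 35.04, 43.8, 73.8 and 90.4, PD16 held 30.97, 34.8, 46.5, 66.1 and 69.8, and PD20 ran from 26.6 over a median of 44.9 to 79.55. Across the 30 libraries the levels of the arms were nearly unrelated, with Pearson's r = 0.16 (permutation p = 0.39) and Spearman's rho = -0.0082 (permutation p = 0.97). Without the 2 libraries farthest from the median of the 3p arm r was 0.15, and with the group means removed -0.18 (permutation p = 0.36).

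Marker miRNAs of leukocytes also had their highest mean level in CD20. Of 4 such miRNAs 3 were found (9 annotated sequences, mir-142 the most abundant, mir-223 not found), with summed levels of 78.6, 87.0, 105, 135 and 206 normalized reads in CD20, 33.4 to 77.3 in CD12 and 23.5 to 73.2 in CD16. The lowest library of CD20 (78.6) lay just above the highest of CD12 (77.3) and above that of CD16 (73.2). How often a summed list separates these groups was not counted, and for single arms it was 5.33% in either comparison. The highest leukocyte values of CD20 were those of replicates 1 and 2, as for miR-126-5p. Of the 9 sequences, 5 had a higher level past an unadjusted p of 0.05 in the contrast of CD20 with CD12 (15.5% of all sequences) and 6 in that with CD16 (12.6%), and 0 were called. In the pregnant gilts the leukocyte levels were 49.7 to 73.4 in PD12, 43.4 to 126 in PD16 and 70.8 to 153 in PD20, with a median log2FC of 0.86 on PD20 vs PD12 (2 of the 9 higher past that limit, against 9.39% of all sequences). On PD20 vs CD20 2 of the 9 were lower past it (15.2%). The part of leukocytes in the levels of miR-126 was not tested.

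**Figure D1:**
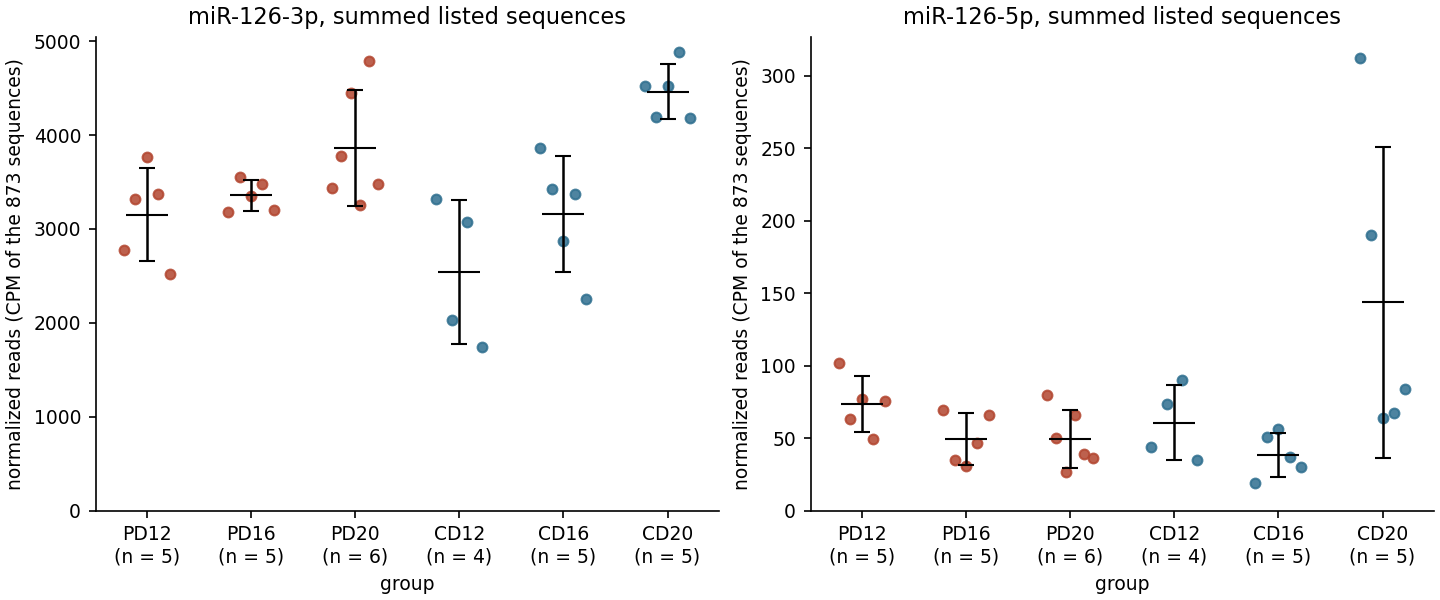
Summed normalized reads (CPM of all annotated sequences, linear axes from 0) of the listed miR-126-3p sequences on the left and miR-126-5p sequences on the right, 1 point per library, with the mean as a horizontal line and the SD as a bar. For the 3p arm all 5 libraries of CD20 lie at 4180 or above, over every library of CD12 and CD16, whereas for the 5p arm replicates 1 and 2 of CD20 (312 and 190) stand apart from all others.

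The first comparison asks how the days of the cycle differ. On CD20 vs CD12 all 17 sequences had a positive log2FC, with a median of 0.74 against 0.086 over all annotated sequences, but none was called. A call required a Benjamini-Hochberg adjusted p under 0.05 over all sequences tested and an absolute log2FC over 1 in the quasi-likelihood F-test of edgeR, with D16 and D20 tested jointly against D12. This rule called 0.458% of all sequences on CD20 vs CD12 and 0.115% on CD16 vs CD12, where 0 members were called too. At an unadjusted p under 0.05 the joint test held 7 members, all higher on CD20 than on CD12, where 15.5% of all sequences were past that limit and higher. The likelihood ratio test of edgeR called 2 members on CD20 vs CD12 (5.73% of all sequences) and DESeq2 called 4 (6.41%), in each case with 3' DEL GCG among them, which passed the filter in CD20 and CD16 but not in CD12. On CD16 vs CD12 4 members were higher and 3 lower past that limit of the joint test (12.8% and 11.1% of all sequences), and the likelihood ratio test called 1 (5.27%), again 3' DEL GCG, and DESeq2 2 (5.84%), this form and 5p 3' DEL G. The lower level of 5p 3' DEL G in CD16 rests on CD12 replicate 3, which held 35.4 normalized reads against 4.93 to 9.07 in the others of its group and 4.84 to 10.7 in CD16, and without it the log2FC of the quasi-likelihood fit was -0.0045.

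Among the 3 most abundant forms, all of the 3p arm, canonical miR-126-3p had the largest log2FC between CD20 and CD12. It had 343, 365, 469, 723 and 996 normalized reads in CD20, 128.1, 153, 294 and 344 in CD12 and 219, 234, 329, 331 and 368 in CD16. The lowest library of CD20 lay just under the highest of CD12, and the 2 highest of CD20 were again replicates 2 and 1. Its log2FC on CD20 vs CD12 was 1.32 ± 0.44 (SE, adjusted p = 0.141), and 1.00 without CD20 replicate 1 (adjusted p = 0.280). For the main form, 3' DEL G, CD20 held 2226, 2396, 2566, 3098 and 3156 normalized reads and CD12 1098, 1317, 1748 and 2179, which did not overlap. The log2FC of 3' DEL G was 0.74 ± 0.36 (adjusted p = 0.343). Besides this form, the isomiR 5' DEL T and 3' DEL G had no overlap between CD20 and CD12, and 2.86% of all sequences were higher without overlap in that comparison.

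Among the rarer forms, 3' DEL GCG had the largest log2FC on CD20 vs CD12 (1.99 ± 0.60, adjusted p = 0.124), at levels from 3.34 to 14.1 normalized reads against 0.412 to 4.305. Its log2FC on CD16 vs CD12 was 1.19 ± 0.60. The isomiR 5' DEL T and 3' ADD T had a log2FC of 1.52 ± 0.48 (adjusted p = 0.140), 5' DEL T 1.23 ± 0.54 (adjusted p = 0.143, or 0.81 without CD20 replicate 1 with an adjusted p of 0.325) and 5' DEL T and 3' DEL G 0.99 ± 0.36 (adjusted p = 0.178) on CD20 vs CD12. For the 5p arm the canonical sequence had 1.36 ± 0.55 (adjusted p = 0.121), or 0.76 without CD20 replicate 1 (adjusted p = 0.229), and 3' DEL G 0.91 ± 0.58 (adjusted p = 0.124). Without CD12 replicate 3 the log2FC of 5p 3' DEL G was 1.92 (adjusted p = 0.0572), and without CD20 replicate 1 it was 0.58 (adjusted p = 0.229). The 7 that were past an unadjusted p of 0.05 therefore came from both arms and from canonical and shifted starts. Since the p of the joint test also covers D16, it belongs to both days. On CD16 vs CD12 the same members had log2FC of 0.44 (canonical 3p), 0.87 (5' DEL T and 3' ADD T), -0.20 (5' DEL T), 0.79 (5' DEL T and 3' DEL G), -0.49 (canonical 5p) and -0.97 (5p 3' DEL G), of which 5' DEL T and 3' ADD T had 1.35 without CD12 replicate 1 and 5p 3' DEL G -0.0045 without CD12 replicate 3. Canonical 3p ranged from 0.23 to 0.72 and canonical 5p from -0.75 to -0.29 with 1 library left out. The main form had 0.48 ± 0.36 on that day, and 5' DEL T and 3' DEL G was the 1 member without overlap there, with 83.9 to 146 normalized reads in CD16 and 52.4 to 82.2 in CD12 (2.63% of all sequences).

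On CD20 vs CD16 the 17 log2FC were again positive, with a median of 0.80 against -0.025 for all sequences, and 0 were called in the quasi-likelihood F-test (0.458% of all sequences). At an unadjusted p under 0.05 there were 7 members, all higher on CD20, against 12.6% of all sequences. The likelihood ratio test called 2 (6.41%) and DESeq2 3 (8.59%). The largest differences were in the 5p arm, where 3' DEL G had a log2FC of 1.88 ± 0.56 and the canonical sequence 1.84 ± 0.52, each with an adjusted p of 0.0957. Canonical miR-126-5p read 45.1, 47.1, 53.1, 156 and 259 normalized reads in CD20 and 13.7, 21.1, 30.1, 36.6 and 47.2 in CD16. Its groups touched in the lower part of CD20, and without CD20 replicate 1 its log2FC was 1.32 (adjusted p = 0.265). In the 3p arm 5' DEL T had 1.43 ± 0.51 (adjusted p = 0.115), 5' ADD C and 3' DEL CG 0.94 ± 0.39 (adjusted p = 0.173), canonical 3p 0.88 ± 0.41 (adjusted p = 0.215), 3' DEL CG 0.81 ± 0.37 (adjusted p = 0.211) and 5' DEL T and 3' DEL CG 0.81 ± 0.37 (adjusted p = 0.206). The main form, 3' DEL G, had 0.26 ± 0.34 (adjusted p = 0.676). With 1 library left out, 5p 3' DEL G ranged from 1.61 to 2.18 and the 3p form 5' DEL T from 1.08 to 1.68. The members without overlap, all higher on CD20, were the 3p isomiR 5' DEL T and 3' DEL CG and the 5p isomiR 3' ADD C, beside 3.44% of all sequences.

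In pregnancy 3' DEL CG, which ends 2 nt before the canonical end, had the largest log2FC on PD20 vs PD12 among the forms that passed the filter in every group, but it was not called. On PD20 vs PD12 9 members had a positive and 8 a negative log2FC, and 0 were called (0.802% of all sequences) in the joint quasi-likelihood F-test, as on PD16 vs PD12 (0.229%). Past an unadjusted p of 0.05 were 3' DEL CG and 5' ADD C and 3' DEL CG, both higher on PD20, where 9.39% of all sequences were past that limit and higher. Also past it was 5' DEL TC and 3' DEL CG, which is in the list through PD20 alone, so that its higher level there is fixed in part by the filter. The likelihood ratio test and DESeq2 each called 3' DEL CG and that form on PD20 vs PD12 (5.27% of all sequences in either) and 0 on PD16 vs PD12 (2.75% and 2.86%). On PD16 vs PD12 the joint p put 2 members past 0.05 with a positive and 1 with a negative log2FC (8.48% and 10.1% of all sequences).

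miR-126-3p 3' DEL CG read 281, 330, 357, 457 and 789 normalized reads in PD12 and 334, 453, 521, 577 and 764 in PD16. In PD20 it ran from 734 over a median of 923 to 1713. Only the lowest library of PD20 lay under the highest of PD12 and of PD16. Its log2FC was 1.24 ± 0.34 on PD20 vs PD12, with an adjusted p of 0.0830 in the joint test and of 0.0497 in the single contrast of D20 with D12, and 0.31 ± 0.34 on PD16 vs PD12. Without PD12 replicate 3, the highest of its group, the joint test gave 1.59 on PD20 vs PD12 (adjusted p = 0.0293), and the log2FC on PD16 vs PD12 ranged from 0.12 to 0.65 with 1 library left out. The 5' shifted forms with that end had 0.82 ± 0.32 (5' ADD C and 3' DEL CG, adjusted p = 0.245) and 1.61 ± 0.45 (5' DEL TC and 3' DEL CG, adjusted p = 0.0696), the latter chosen for the list through PD20. On PD16 vs PD12 they had 0.20 ± 0.33 and -0.0034 ± 0.47.

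The main form and the canonical forms had smaller differences. Over the days of pregnancy 3' DEL G had a log2FC of 0.061 ± 0.25 (PD16 vs PD12) and -0.016 ± 0.24 (PD20 vs PD12), with means of 1988 ± 321, 2014 ± 198 and 1958 ± 373 normalized reads in PD12, PD16 and PD20. The canonical 3p sequence had 0.29 ± 0.30 and 0.44 ± 0.29 and the canonical 5p sequence -0.52 ± 0.38 and -0.52 ± 0.36, none past an unadjusted p of 0.05. Without PD16 replicate 1 canonical 5p had -0.85 on PD16 vs PD12 (adjusted p = 0.253). On PD20 vs PD16 12 members were higher and 5 lower, 0 were called (0.573%) and 2 passed an unadjusted p of 0.05, against 7.9% of all sequences that did so and were higher. These were 3' DEL CG (0.94 ± 0.34, adjusted p = 0.243) and 5' DEL TC and 3' DEL CG (1.61 ± 0.46, adjusted p = 0.118). The likelihood ratio test (2.41%) and DESeq2 (1.72%) each called 1, namely 5' DEL TC and 3' DEL CG. This form held 4.19 to 14.1 normalized reads in PD20, 2.19 to 3.09 in PD12 and 0.476 to 4.13 in PD16, and since only PD20 brought it past the filter these levels are a description. For the remaining canonical forms on PD20 vs PD16 the log2FC was 0.15 ± 0.29 (3p) and 0.00 ± 0.40 (5p), and 3' DEL G had -0.077 ± 0.24. Canonical 3p ranged from 0.12 to 0.45 there with 1 library left out.

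The comparisons of pregnancy with the cycle within a day gave no call on D12 and D16 for any of the sequences tested (0.0% called on either day). On PD12 vs CD12 15 members were higher and 2 lower, and 2 passed an unadjusted p of 0.05 against 3.56% of all sequences that did so and were higher: 3' DEL GCG (1.86 ± 0.65), which passed the filter in PD12 and not in CD12, and 5' DEL T and 3' ADD T (1.02 ± 0.43), both with an adjusted p of 0.677. The log2FC of 3' DEL G was 0.34 ± 0.33, of canonical 3p 0.29 ± 0.40 and of canonical 5p 0.36 ± 0.38. With 1 library left out these ranged from 0.19 to 0.53, from 0.085 to 0.54 and from 0.16 to 0.59. On PD16 vs CD16 11 were higher and 6 lower and 0 passed an unadjusted p of 0.05 (10.9% of all sequences), with -0.10 ± 0.31 for 3' DEL G, 0.065 ± 0.34 for canonical 3p and 0.30 ± 0.42 for canonical 5p. Leaving out 1 library moved canonical 5p between 0.053 and 0.49. The likelihood ratio test called 0 members on D12 (0.115% of all sequences) and on D16 (0.573%), as did DESeq2 (0.0% and 0.803%).

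On PD20 vs CD20 the largest differences were those of the 5p arm, with lower levels on PD20, none of them called. Of the members 13 were lower and 4 higher on PD20, 0 were called in the quasi-likelihood F-test (1.49% of all sequences), 2 higher and 2 lower passed an unadjusted p of 0.05 (13.3% and 15.2% of all sequences), and the likelihood ratio test (14.2%) and DESeq2 (15%) each called the 2 lower ones. These were 5p 3' DEL G (-1.76 ± 0.50, adjusted p = 0.0603) and canonical 5p (-1.52 ± 0.50, adjusted p = 0.0665), the latter with 21.6 to 58.4 normalized reads in PD20 and 45.1 to 259 in CD20, groups that overlap. Without CD20 replicate 1 canonical 5p had -0.93 (adjusted p = 0.239). For 5p 3' DEL G, with 17.1 normalized reads in PD20 replicate 1 and 4.14 to 6.81 in the rest of PD20, the log2FC was -2.21 without that library (adjusted p = 0.0320, called) and -1.45 without CD20 replicate 1 (adjusted p = 0.159). The higher ones were 3' DEL CG (0.79 ± 0.33, adjusted p = 0.129), with 734 to 1713 against 378 to 746, and 5' DEL TC and 3' DEL CG (0.90 ± 0.41, adjusted p = 0.166), the form listed through PD20 alone. The most abundant form, 3' DEL G, had -0.44 ± 0.29 (adjusted p = 0.326), and canonical 3p -0.64 ± 0.34 (adjusted p = 0.222), or -0.33 without CD20 replicate 1 (adjusted p = 0.574). No member was without overlap in this comparison, in which 2.63% of all sequences were higher and 2.18% lower without overlap.

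**Figure D2:**
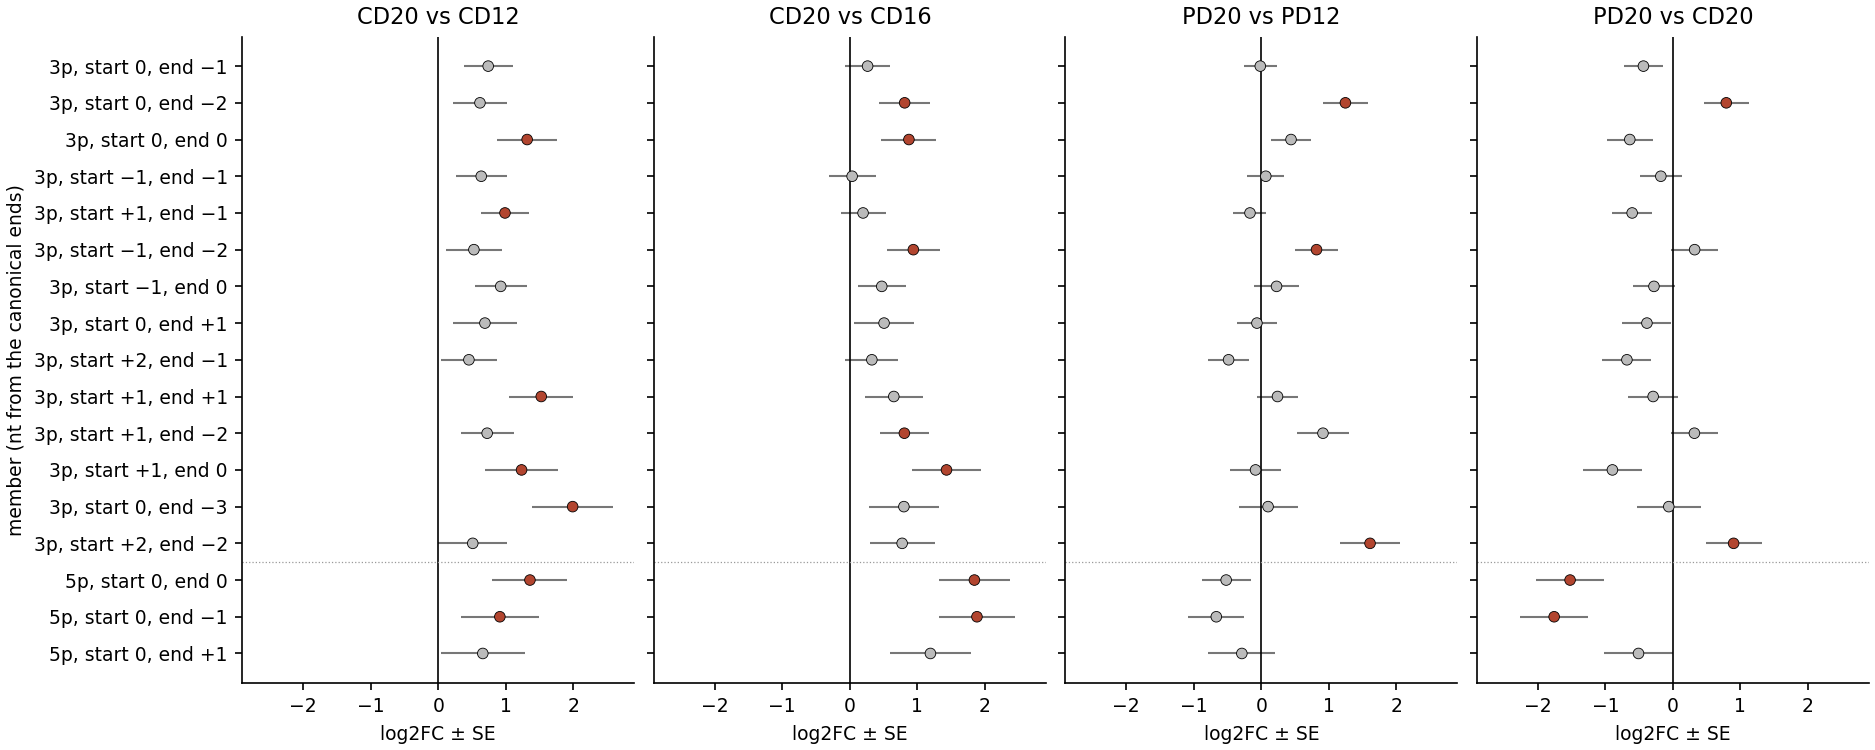
log2FC (horizontal axis) with its SE for each of the 17 sequences in 4 comparisons, named by arm and by the start and end in nt from the canonical ends, with the 3p arm above the dotted line. Red points had an unadjusted p under 0.05 in the quasi-likelihood F-test (joint test of D16 and D20 for comparisons with D12) and grey points did not. In both comparisons of CD20 with earlier days all points lie right of 0, while on PD20 vs PD12 the red points belong to 3p forms with end -2, of which the one with start +2 is listed through PD20 alone, and on PD20 vs CD20 the lowest log2FC belong to the 5p arm.

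Whether the difference between P and C departs between days was tested as an interaction in 1 fit of all 30 libraries. This fit was not repeated with a library left out, although the 5p values on PD20 vs CD20 moved without CD20 replicate 1, as given above. Of D20 with D12, 8 members passed an unadjusted p of 0.05, all with a negative difference of log2FC, against 16.4% of all sequences, and 0 were called (0.115%). The smallest adjusted p was 0.109, for 5' DEL T and 3' DEL G (-1.18 ± 0.36), and the 8 ranged from -0.78 (3' DEL G) to -1.91 (canonical 5p and 3' DEL GCG). Of D20 with D16, 5p 3' DEL G had -2.29 ± 0.70 (adjusted p = 0.0669) and canonical 5p -1.86 ± 0.63 (adjusted p = 0.0927), and 0 members were called (2.41% of all sequences, with 19.1% past an unadjusted p of 0.05). Of D16 with D12, 3' DEL GCG alone was past that limit (-1.95 ± 0.74, adjusted p = 0.501, 8.13% of all sequences). 3' DEL GCG passed the filter in PD12, PD20, CD16 and CD20 but not in CD12 or PD16. Its negative values in D16 with D12 and in D20 with D12 are therefore fixed in part by the filter and are a description. With the likelihood ratio test 1 member was called, 5p 3' DEL G in D20 with D16, where that test called 5.38% of all sequences (1.83% in D20 with D12 and 0.0% in D16 with D12).

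Summed by arm, 1 of 18 results was called. The summed miR-126-5p was higher on CD20 than on CD16, with a log2FC of 1.56 ± 0.45 (adjusted p = 0.0449), where 12 of 225 arms or 5.33% were called. Elsewhere 0.444% (PD16 vs PD12 and PD20 vs CD20), 0.889% (PD20 vs PD12 and PD20 vs PD16), 2.67% (CD16 vs CD12 and CD20 vs CD12) or 0.0% (PD12 vs CD12 and PD16 vs CD16) of arms were called. The call was lost without CD20 replicate 1 (1.27, adjusted p = 0.120) and without replicate 2 (1.57, adjusted p = 0.0802). It was also lost without any 1 of replicates 1, 2, 4 and 5 of CD16 or replicate 2 of CD12, with 1.39 to 1.70. The other large differences of the 5p sum were 1.01 ± 0.47 on CD20 vs CD12 (adjusted p = 0.0736) and -1.26 ± 0.43 on PD20 vs CD20 (adjusted p = 0.0769), which without CD20 replicate 1 were 0.65 (adjusted p = 0.171) and -0.90 (adjusted p = 0.202). The former was called without CD16 replicate 3 or without CD20 replicate 3 or 4 (4.44%, 3.56% and 3.11% of all arms called). The latter was called without replicate 4 of PD20 or of CD20 (14.7% and 12.4%). For these fits library size and TMM factors were taken from the summed table. With the factors of the table of single sequences, an alternative chosen after seeing the data, both were called (1.24, adjusted p = 0.0493, and -1.51, adjusted p = 0.0462), and CD20 vs CD16 was 1.82 (adjusted p = 0.0299). With those factors 3.56% (CD20 vs CD12), 5.33% (CD20 vs CD16) and 12.9% (PD20 vs CD20) of all arms were called.

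The summed miR-126-3p was called in no comparison. Its log2FC was 0.62 ± 0.35 on CD20 vs CD12 (adjusted p = 0.410), 0.22 ± 0.33 on CD20 vs CD16 (adjusted p = 0.697) and 0.45 ± 0.23 on PD20 vs PD12 (adjusted p = 0.369). On the scale of the sequences, on which the levels above are given, the first 2 were 0.79 and 0.40. On PD20 vs CD20 it was 0.047 ± 0.27 with the factors of the summed table and -0.19 with those of the sequences, so that its direction depends on the scaling. Library size from all deposited reads moved the median of all sequences by more than 0.1 in most comparisons, to 0.47 on CD20 vs CD12, 0.23 on CD20 vs CD16 and -0.27 on PD20 vs CD20.

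The ratio of the arms does not depend on library size. A library held on average 58.6 reads of miR-126-3p per read of miR-126-5p (geometric mean, n = 30), from 14.5 to 201. Of the 41 miRNAs with both arms in the list, 13 were more uneven and 27 less. The libraries of CD20 held 14.5, 22.04, 49.5, 70.1 and 72.3 reads of 3p per read of 5p and those of CD16 50.5, 67.4, 75.03, 90.4 and 201. PD12 held 27.3, 33.2, 48.7, 52.1 and 68.3, and PD20 ran from 43.1 to 166. All groups overlapped their neighbours, and the geometric means were 43.6 (PD12), 70.8 (PD16), 82.1 (PD20), 43.2 (CD12), 85.8 (CD16) and 38.1 (CD20). No difference in the log2 ratio of 5p to 3p passed the exact two-sided permutation test adjusted over the 41 miRNAs, for which 0.0% were called in each of the 9 pairs of groups. The largest were 1.17 on CD20 vs CD16 (exact p = 0.0873, adjusted p = 0.256), -1.11 on PD20 vs CD20 (exact p = 0.0736, adjusted p = 0.201), -0.99 on CD16 vs CD12 (exact p = 0.0714, adjusted p = 0.209) and -0.91 on PD20 vs PD12 (exact p = 0.0541, adjusted p = 0.317). Without CD20 replicate 1 the ratio differed by 0.82 on CD20 vs CD16 (adjusted p = 0.421) and by -0.76 on PD20 vs CD20 (adjusted p = 0.434, exact permutation tests).

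**Figure D3:**
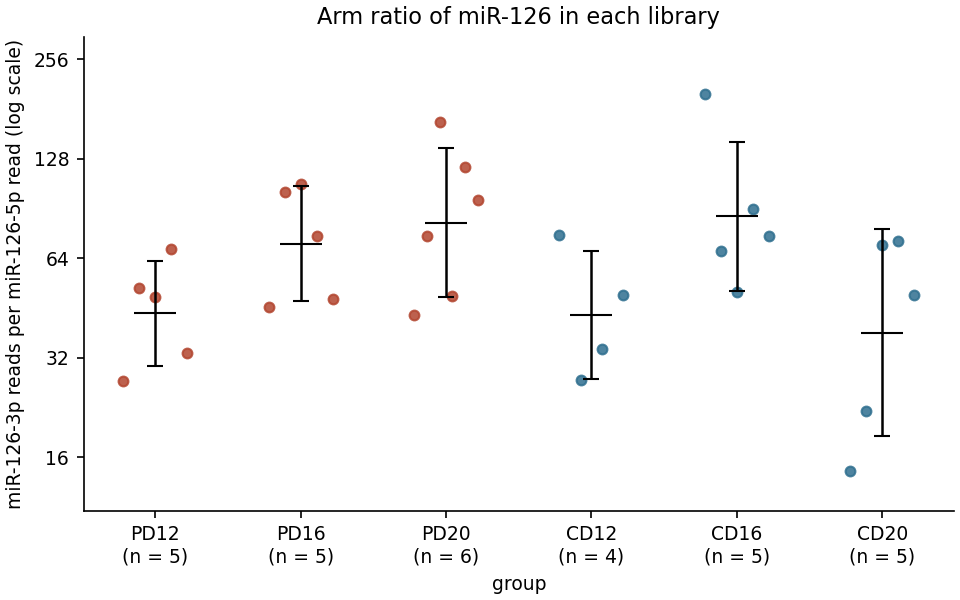
Reads of miR-126-3p per read of miR-126-5p in each library (vertical axis on a log scale), 1 point per library, with the geometric mean as a horizontal line and the SD of the log2 ratio as a bar. The groups overlap, and the lowest points, 14.5 and 22.04, are CD20 replicates 1 and 2.

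At the 5' end most reads began at the canonical base. As means of the shares in the 30 libraries, 87.0% of the miR-126-3p reads did so, 8.39% began 1 nt before it, 4.06% 1 nt after it and 0.583% 2 nt after it. The share with a shifted start was 13.4% ± 1.2 (PD12), 14.2% ± 1.7 (PD16), 12.1% ± 2.0 (PD20), 12.8% ± 1.2 (CD12), 13.6% ± 1.5 (CD16) and 12.3% ± 1.1 (CD20). It ranked 25 of 71 arms that had shifted starts, whose median was 3.62%. Groups overlapped in all 9 pairs, and the largest difference was -2.10 percentage points on PD20 vs PD16 (exact permutation p = 0.0996, adjusted p = 0.523). The test called 0.0% of the 71 arms in each pair except PD20 vs CD20 (5.63%), where miR-126-3p differed by -0.24 points (exact p = 0.812). No listed sequence of the 5p arm had a shifted start.

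At the 3' end, reads of miR-126-3p stopped earlier on average in PD20, although the test adjusted over all arms called no pair of groups. Reads ending 2 nt before the canonical end made up 9.34%, 13.5%, 15.6%, 15.7% and 22.8% of the listed 3p reads in PD12 and 10.9%, 15.6%, 18.01%, 18.8% and 23.6% in PD16. In PD20 the share ran from 23.3% over a median of 26.2% to 41.4%. In the cyclic gilts it was 12.8%, 15.8%, 16.7% and 23.5% (CD12), 8.60%, 9.35%, 11.7%, 13.1% and 14.3% (CD16) and 9.23%, 14.9%, 16.96%, 17.6% and 18.6% (CD20). Every library of PD20 lay above every one of PD12 and of CD20. How many other arms separate in the share of reads at a single end was not counted. In the mean 3' end, given below, 8.72% of arms were lower without overlap on PD20 vs PD12 and 6.04% on PD20 vs CD20. The share ending 1 nt before the canonical end, over the forms with 3' DEL G at any start, was 59.0% ± 7.2 in PD20 and 73.3% ± 2.9 in PD12, again without overlap, while the share with the canonical end was 10.6% ± 1.6 and 10.03% ± 3.0.

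As a mean over reads, the 3' end lay at -1.17 ± 0.078 nt from the canonical end in PD20, -1.04 ± 0.076 in PD12, -1.05 ± 0.070 in PD16, -1.06 ± 0.051 in CD12, -0.996 ± 0.035 in CD16 and -0.996 ± 0.083 in CD20. On PD20 vs CD20 the difference was -0.177 nt (exact permutation p = 0.0022, the smallest that 6 against 5 libraries can give, adjusted p = 0.0645), and the groups did not overlap. Without CD20 replicate 1 it was -0.150 nt (adjusted p = 0.118). Of 149 arms with several ends, 6.04% were lower without overlap in that pair, 19.5% had an unadjusted p under 0.05 with a shorter end on PD20 and 0.0% were called. On PD20 vs PD12 it was -0.135 nt (exact permutation p = 0.0152, adjusted p = 0.0753), where 8.72% of arms were called, the same share was lower without overlap, and 24.8% had an unadjusted p under 0.05 with a shorter end on PD20. Without PD12 replicate 3 the difference on PD20 vs PD12 was -0.163 nt and was called (adjusted p = 0.0355). The 8.72% of arms above were called with all libraries, with which miR-126-3p was not called. On PD20 vs PD16 it was -0.119 nt (exact permutation p = 0.0281, adjusted p = 0.299), where 10.7% of arms had an unadjusted p under 0.05 with a shorter end on PD20 and 0.0% were called. Shorter 3' ends on PD20 were thus found in many arms of the list, and a difference of miR-126-3p from them was not tested. The 3' end of miR-126-5p lay at -0.081 ± 0.069 nt in PD20 and -0.17 ± 0.12 in CD20, in the other direction (exact permutation p = 0.162, adjusted p = 0.355).

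**Figure D4:**
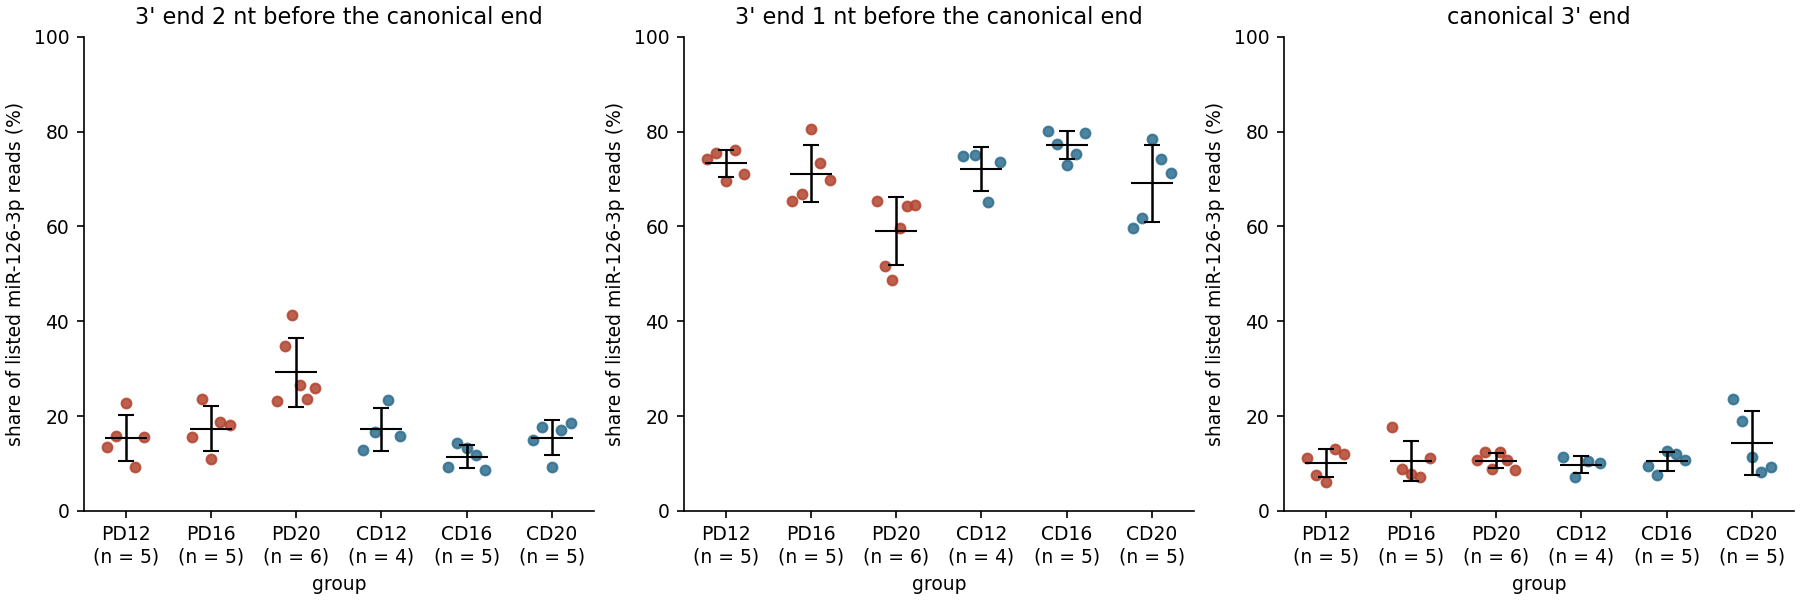
Share of the listed miR-126-3p reads (percent, axes from 0 to 100) that end 2 nt before the canonical 3' end, 1 nt before it and at it, 1 point per library, with the mean as a horizontal line and the SD as a bar. In PD20 the share ending 2 nt early lies between 23.3% and 41.4%, above every library of PD12 and CD20. The share ending 1 nt early lies below every library of PD12 but overlaps CD20, where replicates 1 and 2 hold 59.6% and 61.8%. How many other arms separate in these shares was not counted.

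The ends of a read were related to its start. Of the reads that began 1 nt after the canonical base 10.8% ended with 3' ADD T, against 0.584% of the reads with the canonical start, and this share was higher in 30 of 30 libraries. Ends 2 nt early were found on 18.9% of reads with the canonical start, on 9.71% of those that began 1 nt later (lower in 30 of 30 libraries) on 14.8% of those that began 1 nt earlier (lower in 28 of 30) and on 19.6% of those that began 2 nt later (lower in 13 of 30). These shares come from sequences of the list alone, in which not every start has every end.

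Marker miRNAs of other cells were also examined, and their part in the results was not tested. The smooth muscle list (mir-143 and mir-145, 29 sequences, mir-143 the most abundant) and the striated muscle list (3 of 5 found, 8 sequences, mir-1 the most abundant, mir-133a and mir-133b not found) were highest in PD20 replicate 1, with 395867 and 40186 normalized reads against medians of 66631 and 3853 in that group. Past an unadjusted p of 0.05, 5 of the 8 striated muscle sequences were higher on PD20 vs PD12 (median log2FC 1.64), on PD20 vs PD16 (2.21) and on PD20 vs CD20 (1.77). Of the 29 smooth muscle sequences 9, 17 and 7 were, with medians of 0.71, 1.19 and 0.89, where 9.39%, 7.9% and 13.3% of all sequences were past that limit and higher. One smooth muscle sequence was called on PD20 vs PD16 (0.573% of all sequences). Without PD20 replicate 1, 3' DEL CG had a log2FC of 1.37 on PD20 vs PD12 (adjusted p = 0.0605), and the 3' end differed by -0.147 nt on PD20 vs PD12 and by -0.189 nt on PD20 vs CD20. These differences are as large as with that library.

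Epithelial miRNAs (6 of 6 found, 34 sequences, mir-200c the most abundant) summed to 7733 ± 2236 normalized reads in CD20, 12826 ± 3476 in CD16 and 10315 ± 2404 in PD20. On PD20 vs CD20 3 of the 34 were called lower (1.49% of all sequences called), although the mean summed level was higher in PD20. In that comparison 1 of the 34 was higher and 9 lower past an unadjusted p of 0.05 (13.3% and 15.2% of all sequences). On CD20 vs CD12 8 of them were higher and 1 lower past an unadjusted p of 0.05 (15.5% and 8.48%), with a summed level of 8685 ± 2059 in CD12. Erythrocyte miRNAs (3 of 3 found, 16 sequences, mir-451 the most abundant) ranged from 326 to 3977 across the libraries with 0 called in any comparison. On PD20 vs CD20 6 of the 16 were higher and 0 lower past an unadjusted p of 0.05 (13.3% and 15.2% of all sequences), with a median log2FC of 0.52 and mean levels of 2190 and 1076 normalized reads. From the embryonic list 0 of 4 were found by name, but 22 listed sequences carry no miRNA name of the usual form, so that a miRNA not found by name may still be in the list. One of the 22, listed under Ensembl identifiers, has the sequence of the study's assay for miR-302, a miRNA known from embryonic stem cells. It had 4, 7, 11, 48, 117 and 121 reads in PD20, 1 and 2 reads in 2 libraries of CD20 and 0 in all other libraries. All 6 libraries of PD20 thus lay above every other library, with a mean of 17.8 normalized reads. Only libraries of PD20 reached 10 reads, so that the sequence is in the list through PD20. Its higher level there is fixed in part by the filter and is a description. Of all sequences 2.18% (PD20 vs PD12), 1.15% (PD20 vs PD16) and 2.63% (PD20 vs CD20) were higher without overlap. This sequence was looked up after its values had been seen, and the part of embryonic RNA in the levels and ends of miR-126 on PD20 was not tested.

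Other miRNAs linked to vessels and angiogenesis were examined as a list of 16, of which 14 were found with 60 sequences (mir-27b the most abundant, mir-130a and mir-503 not found). In the cycle 15 of the 60 were higher and 5 lower past an unadjusted p of 0.05 on CD20 vs CD12 (15.5% and 8.48% of all sequences), with a median log2FC of 0.41 against 0.086 over all sequences. On CD20 vs CD16 12 were higher and 4 lower (12.6% and 8.59%), with a median of 0.12 against -0.025. In pregnancy, on PD20 vs PD12, 7 were higher and 5 lower (9.39% and 9.28%), with a median of 0.15 against -0.013, so that both counts lay near those of all sequences. On PD20 vs CD20 1 was called higher and 1 lower (1.49% of all sequences called), with a median of -0.0083 against -0.033. In the 8 other comparisons of days or states 0 of the 60 were called.

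The arms most like miR-126-3p in their level over the 30 libraries (log2 of normalized reads + 1, among arms with a mean of at least 10) were mir-142 (Pearson's r = 0.62), miR-30c-5p (0.61), miR-23a (0.57), miR-195 (0.53) and mir-29a (0.51). For miR-126-5p they were miR-16 (0.80), miR-106b-5p (0.77), miR-17-5p (0.73), miR-186 (0.72) and miR-195 (0.71). The median over 157 arms was -0.023 and 0.0030. These are the highest of many values from libraries that share their scaling, and they are given as a description. Only miR-195 was in both sets, with a Spearman's rho of 0.17 for miR-126-3p and 0.61 for miR-126-5p. With the group means removed, r ranged from 0.21 (mir-29a) to 0.36 (mir-142) in the 3p set. In the 5p set it ranged from 0.60 (miR-186) to 0.71 (miR-106b-5p).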

How the data were processed

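Small RNA libraries of endometrium from 30 gilts were sequenced by the authors, with all libraries labelled as biological replicates and made in 3 multiplexed pools. The files as deposited by the authors hold raw counts of identical trimmed reads per sequence and library, without normalization. Per the study's methods, reads were quality filtered, adapters and short or ambiguous reads were removed, and sequences were annotated by full identity to miRNAs of miRBase, Ensembl, EMBL or NCBI. Here each annotated sequence was counted by exact match, and the libraries' annotated sequences held 75.3% to 87.2% of their reads. Counts were tested across all annotated sequences in edgeR (v 4.0.16, R 4.3.3) by the quasi-likelihood F-test after TMM scaling, with a prior count of 0.125 and Benjamini-Hochberg adjustment. PD12, PD16 and PD20 shared a fit, as did CD12, CD16 and CD20, and P and C were compared within each day. SE is the size of the log2FC divided by the square root of its F. The same fit was made for counts summed over 225 arms. Arm ratios (0.5 reads added to each arm), 5' shifted shares and 3' ends were tested by permuting gilts between groups (exact, two-sided), with adjustment over all miRNAs or arms. Members named in each comparison are the canonical and the most abundant form of each arm and those with an unadjusted p under 0.05. Alternatives were the likelihood ratio test, DESeq2 (v 1.42.0), other library sizes and filters, a fit of all libraries, a replicate block and leaving out each library. The scripts were tested on simulated data. The members, marker lists and comparisons were chosen with earlier results of these data known. P-values measure the spread between gilts. Which library was in which pool is not given in the sources used here, so pools were not examined. No 2 libraries of a group agreed within sampling noise.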

Additional observations from a re-analysis of the deposited data

Results flagged for a closer look

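In 8 of 192 groups of values 1 library lay far from the others of its group, where chance gives about 1 in 20. These were miR-126-3p 3' DEL G in PD20 replicate 5 (2686 normalized reads), 3' ADD T in CD12 replicate 4 (5.36), 3' DEL GCG in CD16 replicate 4 (7.42) and 5' DEL TC and 3' DEL CG in CD16 replicate 2 (4.44). In the 5p arm 3' DEL G stood apart in PD20 replicate 1 (17.1 normalized reads) and in CD12 replicate 3 (35.4). The mean 3' end of miR-126-3p was -1.06 nt in CD16 replicate 2, and the share of 3p reads ending 1 nt early was 65.2% in CD12 replicate 3. These values stayed in all comparisons, and none of the libraries stood apart in more than 2 of the values.

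Reads outside the annotated list also carried the inner bases of miR-126. Of the deposited reads that hold the 16 bases shared by the forms of an arm, 10.5% (3p) and 33.5% (5p) fell on sequences that are not in the list and entered no comparison.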

How the results depend on the processing

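Across 99 results, alternatives other than leaving out a library gave 699 values, of which 612 kept direction and side of the threshold, 50 were newly called, 1 lost its call, 26 counts moved and 10 changed direction. Leaving out 1 library in turn gave 1064 values, of which 1008 kept both, 16 were newly called, 7 lost their call, 7 counts moved and 26 changed direction. The alternatives of the interaction, the factors of single sequences for arm sums and the block for 5' shifted shares and 3' ends were chosen after seeing the data. The quasi-likelihood F-test called 0 of 17 members in every comparison. The likelihood ratio test called 2 (PD20 vs PD12), 1 (PD20 vs PD16), 1 (CD16 vs CD12), 2 (CD20 vs CD12), 2 (CD20 vs CD16), 2 (PD20 vs CD20) and 1 (interaction of D20 with D16). DESeq2 called 2, 1, 2, 4, 3 and 2 in the first 6 of these, and 1 fit of all libraries gave 2, 1, 2, 6, 3 and 2, where it called 2.06%, 1.26%, 4.01%, 5.73%, 7.33% and 11.2% of all sequences. The single contrast called 1 on PD20 vs PD12 (2.86%), and all deposited reads as library size called 1 on PD20 vs CD20 (1.83%) and 1 in the interaction of D20 with D16 (2.29%). The 1 called on PD20 vs PD16 by the likelihood ratio test, DESeq2 and the fit of all libraries was 5' DEL TC and 3' DEL CG, listed through PD20 alone, which was also 1 of their 2 on PD20 vs PD12. With 1 library left out, 0 to 1 members were called on PD20 vs PD12 (without PD12 replicate 3, 2.41% of all sequences), 0 to 2 on CD20 vs CD16 (without CD20 replicate 3 or 4, 4.12% and 2.18%) and 0 to 2 on PD20 vs CD20 (without PD20 replicate 1 or 4 or CD20 replicate 3 or 4, 1.03%, 13.3%, 1.26% and 11.9%).

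Of the arm sums 1 of 18 was called, against 3 with the likelihood ratio test, 3 with all deposited reads as library size, 3 with the factors of single sequences and 0 with the replicate block. miR-126-5p on CD20 vs CD12 was 1.01 (likelihood ratio test), 1.62 (all reads) and 1.24 (factors of single sequences), and on PD20 vs CD20 -1.26, -1.84 and -1.51, each called. In these comparisons the likelihood ratio test called 7.11% and 12.4% of arms and all reads 9.78% and 12.9%. Summed miR-126-3p on PD20 vs CD20 reversed with all reads (-0.43) and with the factors of single sequences (-0.19). With 1 library left out, the 5p sum ranged from 1.27 to 1.87 on CD20 vs CD16, 0.65 to 1.25 on CD20 vs CD12 and -1.46 to -0.90 on PD20 vs CD20, the 3p sum from -0.065 to 0.12 on PD20 vs CD20, and the 3' end of miR-126-3p on PD20 vs PD12 from -0.163 to -0.107 nt.

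Some log2FC changed direction. 3' DEL G on PD16 vs PD12 was -0.0062 with all reads, -0.044 at a minimum of 10 CPM and -0.058 with all deposited sequences. Canonical 5p on PD20 vs PD16 was -0.00041 with the likelihood ratio test and -0.076 with all reads, and 3' DEL G on PD16 vs CD16 was 0.0025 with all reads. With 1 library left out the ranges that crossed 0 were -0.033 to 0.14 (3' DEL G), -0.0073 to 0.38 (canonical 3p) and -0.24 to 0.26 (5' DEL TC and 3' DEL CG) on PD16 vs PD12, -0.13 to 0.059 (3' DEL G) on PD20 vs PD12, -0.15 to 0.011 (3' DEL G) and -0.15 to 0.33 (canonical 5p) on PD20 vs PD16, -0.49 to 0.040 (5' DEL T) on CD16 vs CD12, and -0.21 to 0.046 (3' DEL G) and -0.14 to 0.19 (canonical 3p) on PD16 vs CD16. The cause of these differences was not tested. Depth limits the rarest forms, with means of 3.54 to 6.53 normalized reads.

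Replicate numbers did not pair the libraries: in 0 of 9 comparisons did every pair of libraries with the same number correlate above 0.1, with median r from -0.155 to 0.068. With the replicate block the 5p sum on CD20 vs CD16 was 1.47 (adjusted p = 0.0901, edgeR), 3' DEL G on PD20 vs PD12 was 0.017, 5' DEL T on CD16 vs CD12 was 0.0039, and 0 members were called.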

Other observations

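The unlisted reads with the inner bases of miR-126 often ended in an added adenine. Over all libraries 290610 deposited reads held the inner bases of miR-126-3p, on 330 distinct sequences, and 7.36% of them matched the listed forms up to a point and then ended in A alone. The most abundant unlisted sequence, tCGTACCGtgagtaataatgca, is 3' DEL G with an A at its end and had 10326 reads, or 3.55%. For miR-126-5p there were 8034 such reads on 79 sequences, 23.7% with an A tail and 6.48% with a T tail. The canonical 5p sequence with an added A, cATTATTActtttggtacgcga, had 1671 reads, or 20.8% of all reads with the inner bases of the arm, and was thus more frequent than the listed 5p 3' DEL G. The mean over the libraries of the share with an A tail was lowest in PD16, with 5.71% for the 3p arm and 18.4% for the 5p arm. In the other groups it lay between 7.25% (PD20) and 7.99% (CD16) for the 3p arm and between 22.8% (PD12) and 26.2% (CD12) for the 5p arm. These shares were not tested.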
